A study of Homo sapiens with 12 samples.

Results

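Mature strands of microRNAs known from lymphocytes were examined in K562, an established human line of leukaemic cells with traits of the red-cell and platelet lineages. The strands were chosen by name, as rows whose identifier starts with hsa-miR-142-, hsa-miR-150-, hsa-miR-155- or hsa-miR-342-. This gave 5 strands, miR-142-3p, miR-142-5p, miR-342-3p, miR-342-5p and miR-155-5p, of 952 microRNA strands with a row in either of the authors' 2 deposited comparisons, or 9 of 1705 rows. 4 of them had a row in both comparisons, and miR-155-5p was tested for CYRANO only. No other strand that the rule names had a row in either comparison, so none could be analysed.

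Small RNA was sequenced in 12 libraries of 4 groups, with 3 libraries a group that the depositors describe as biological triplicates. The sgCYRANO cells received a guide directed at CYRANO, a long non-coding RNA, and their sgNT controls a non-targeting guide. The labels name no guide for the ZSWIM8 KO cells (ZSWIM8-/-) or their WT controls (wild type). The sources used here do not say whether the knockout is 1 clone or a pool. ZSWIM8 recruits substrates to a Cullin-RING ubiquitin ligase, and CYRANO is a target RNA that causes loss of miR-7, so both comparisons ask which microRNAs respond when target-directed microRNA decay is disrupted.

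miR-142 is expressed across blood cell lineages and is best known from lymphocytes and myeloid cells, where its hairpin is processed from a non-coding host transcript. Both of its arms are loaded into Argonaute and are known to act on targets. miR-342 is processed from an intron of EVL, which encodes an actin regulator of the Ena/VASP family, and has been described in B cells, plasma cells and myeloid differentiation. miR-155 is induced on activation of B cells, T cells and macrophages, from the host transcript MIR155HG.

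The mature strands are shown because the seed, bases 2 to 8 counted from the 5′ end, decides most target pairing. The seed is in capitals, and the sequences are RefSeq's (GRCh38.p14), in which 5 of 5 strands were matched by name.
hsa-miR-142-3p: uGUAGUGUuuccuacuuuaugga
hsa-miR-142-5p: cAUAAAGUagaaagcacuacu
hsa-miR-342-3p: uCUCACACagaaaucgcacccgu
hsa-miR-342-5p: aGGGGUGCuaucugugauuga
hsa-miR-155-5p: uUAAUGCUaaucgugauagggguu

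No 2 of the 5 strands share a seed. Among 2370 mature names in the RefSeq table, 1 other name, miR-5590-3p, has the seed of miR-142-5p, and it had no row in either comparison. The seeds of the other 4 strands occur under no further name. Each of the 5 strands has 1 place in the RefSeq table, so their counts are not split over hairpin copies there. The strands are 21 to 24 bases long. G and C make up 34.8% of miR-142-3p, 33.3% of miR-142-5p, 52.2% of miR-342-3p, 47.6% of miR-342-5p and 37.5% of miR-155-5p.

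Both arms of miR-142 and miR-342 were measured, so their hairpins are shown with the mature strands in capitals, the 5p strand first.
MIR142: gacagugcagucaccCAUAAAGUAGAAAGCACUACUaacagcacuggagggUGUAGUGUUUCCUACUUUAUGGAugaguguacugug
MIR342: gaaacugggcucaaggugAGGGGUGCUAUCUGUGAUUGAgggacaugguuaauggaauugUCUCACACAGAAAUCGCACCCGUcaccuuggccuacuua

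In RefSeq (GRCh38.p14) the MIR142 hairpin lies at chr17:58331232-58331318 on the - strand, within the non-coding host gene MIR142HG (chr17:58330888-58332520). In GENCODE 29 it lies in an exon of AC004687.1 on the same strand and in an intron of TSPOAP1-AS1 on the opposite strand. MIR342 lies at chr14:100109655-100109753 on the + strand, in an intron of EVL in all 8 overlapping GENCODE 29 transcripts. MIR155 lies at chr21:25573980-25574044 on the + strand, in an exon of MIR155HG. The submitters' processing notes name the build hg19, and the deposited tables hold no coordinates. The longest unbroken run of Watson-Crick pairs between the arms is 10 bases in MIR142, from base 1 of the 5p strand. In MIR342 it is 6 bases, from base 3 of the 5p strand.

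The deposited values were a log2 fold change, a mean log2 level and a test for each microRNA, and single libraries had no values there. From these columns the mean of each group was worked back, in counts per 1000000 reads of the microRNAs with a row (CPM). No header states which group is on top, and the fold changes were read as sgCYRANO over sgNT and as ZSWIM8 KO over WT. Read this way, miR-7-5p was higher in sgCYRANO and in ZSWIM8 KO, with log2 fold changes of 2.52 ± 0.09 and 2.35 ± 0.14 in the authors' deposited tables (edgeR quasi-likelihood test, adjusted p = 5.03e-174 and 8.48e-61). With the opposite reading, the values of both groups in a comparison would change places. The ± errors in the text are standard errors worked back from the deposited p, and a microRNA is called where its adjusted p is under 0.05. The p-values rest on variances shared across microRNAs, and 315 of 837 in the first table and 46 of 868 in the second equal a Poisson bound, so for a single strand they do not measure its own spread between libraries. Reads of a library over the microRNAs with a row totalled 1670000 to 1850000 for sgCYRANO and 1540000 to 2300000 for sgNT. They totalled 2090000 to 2490000 for ZSWIM8 KO and 860000 to 1850000 for WT. These totals were read from the smallest steps in the group means.

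The label of the cells was checked against marker strands. All 8 erythroid and megakaryocytic markers had a row in both tables, among them miR-486-5p at 12031 CPM in sgCYRANO and 11701 CPM in sgNT. That strand had 13387 CPM in ZSWIM8 KO and 14449 CPM in WT. The 8 markers summed to 48562 CPM in sgCYRANO and 50003 CPM in sgNT, and to 65614 CPM in ZSWIM8 KO and 60738 CPM in WT. Most of each sum was miR-126-3p, at 33691 CPM in sgCYRANO and 35369 CPM in sgNT, and at 48225 CPM in ZSWIM8 KO and 42776 CPM in WT. Of the 8 markers 0 passed in sgCYRANO over sgNT (edgeR quasi-likelihood test), with 1 at an unadjusted p under 0.05. Of all microRNAs 0.119% passed there, and 5.85% had an unadjusted p under 0.05. In ZSWIM8 KO over WT 1 of the 8 passed, miR-486-3p, with a log2 fold change of -0.40 ± 0.14 in the authors' deposited table (adjusted p = 0.0427). All 8 were at 10 CPM or more, where 23% of microRNAs were called in that comparison, so 1 of 8 is not above the background. An unadjusted p under 0.05 was found for 2 of the 8, against 19.8% of all microRNAs. Among those that did not pass, miR-144-3p had 239.1 CPM in ZSWIM8 KO and 119.4 CPM in WT (adjusted p = 0.364 in the authors' deposited table). Likewise miR-451a had 956 CPM in ZSWIM8 KO and 574 CPM in WT (adjusted p = 0.583 in the authors' deposited table). Of 13 markers of other cell types, 5 had no row in either table and 3 reached 10 CPM in each. Those with a row summed to 1083 CPM in sgCYRANO and 891 CPM in sgNT, and to 1518 CPM in ZSWIM8 KO and 686.5 CPM in WT. Most of this sum was miR-9-5p, at 985 CPM in sgCYRANO and 795 CPM in sgNT, and at 1396 CPM in ZSWIM8 KO and 558 CPM in WT. Of these markers 0 passed in either comparison (edgeR quasi-likelihood test), against 0.119% and 9.91% of all microRNAs. In each comparison 1 had an unadjusted p under 0.05, against 5.85% and 19.8% of all microRNAs. The part of either marker list in the results was not tested. In bulk libraries, a change in the share of expressing cells and a change per cell cannot be told apart.

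miR-142-3p was the most abundant of the strands in each of the 4 groups. Its group means were 2692 CPM in sgCYRANO, 2566 CPM in sgNT, 2331 CPM in ZSWIM8 KO and 2778 CPM in WT. By mean level it was number 29 of 837 microRNAs in the first table and number 33 of 868 in the second. miR-142-5p, the opposite arm, had 832 CPM in sgCYRANO, 885 CPM in sgNT, 947 CPM in ZSWIM8 KO and 901 CPM in WT.

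The miR-342 strands were scarcer. miR-342-3p had 92.9 CPM in sgCYRANO, 101.8 CPM in sgNT, 163.1 CPM in ZSWIM8 KO and 93.7 CPM in WT. The ZSWIM8 KO mean of miR-342-3p thus stood above the other group means, which lay close together. miR-342-5p had 26.2 CPM in sgCYRANO, 13.9 CPM in sgNT, 22.9 CPM in ZSWIM8 KO and 15.9 CPM in WT, so that both perturbed groups had the higher mean. The order miR-142-3p, miR-142-5p, miR-342-3p, miR-342-5p was the same in the 4 groups, and also in CPM per base of the mature strand. Reads are of whole strands, and ligation can favour some sequences, so level differences between strands were not tested.

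**Figure D1:**
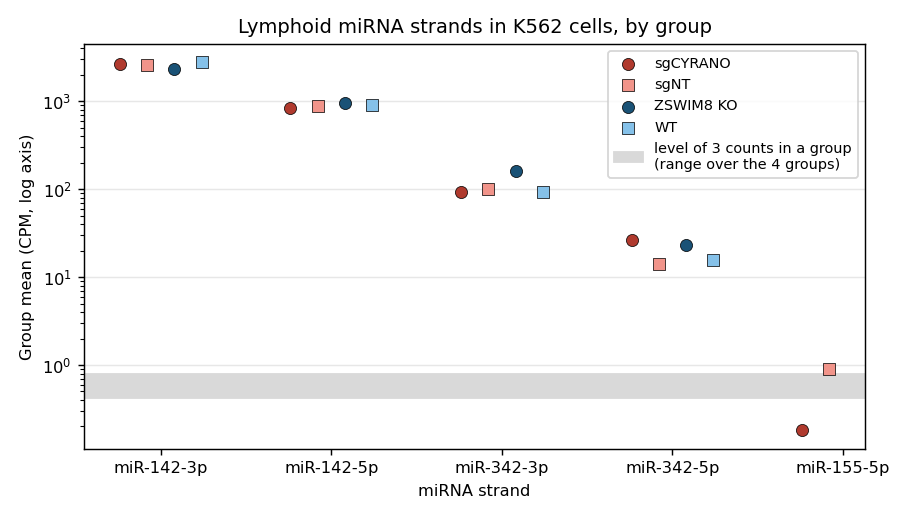
Group mean levels (CPM, log axis) of the 5 strands in sgCYRANO, sgNT, ZSWIM8 KO and WT, 1 point per group of 3 libraries, with the level of 3 counts in a group as a grey band. The strands span from 2778 CPM for miR-142-3p in WT to 0.180 CPM for miR-155-5p in sgCYRANO, which lies under the band.

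miR-155-5p was at the limit of detection. Its group mean was 0.180 CPM in sgCYRANO and 0.899 CPM in sgNT. These means equal 1 read in 1 library of sgCYRANO, and 2 reads in the largest and 3 reads in the middle-sized library of sgNT, within 0.0015 CPM. The ratio of 1 to 5 reads was 0.208 with a 95% exact interval from 0.00439 to 1.86, so a difference was not detectable at this depth. A count of 0 allows up to 0.567 CPM in sgCYRANO and 0.547 CPM in sgNT, taking 3 counts over the group, and such limits cover counting error only.

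The first comparison asked whether the strands respond to the guide against CYRANO. None of the 5 passed an adjusted p of 0.05, and 1, miR-342-5p, had an unadjusted p under 0.05 (edgeR quasi-likelihood test). Of all 837 microRNAs 0.119% passed, which is miR-7-5p alone, and 5.85% had an unadjusted p under 0.05. Of the 299 microRNAs at 10 CPM or more, 0.334% passed. The median log2 fold change was -0.09 over the 5 strands and 0.01 over all 837 microRNAs.

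The miR-142 strands differed little between the groups. The authors' deposited table gave a log2 fold change of 0.07 ± 0.09 for miR-142-3p, with a 95% interval from -0.11 to 0.25 and an adjusted p of 0.980. It gave -0.09 ± 0.10 for miR-142-5p, with an interval from -0.29 to 0.11 and the same adjusted p. On the linear scale the intervals run from 0.927 to 1.19 times the sgNT level for miR-142-3p and from 0.820 to 1.08 times for miR-142-5p. About 14240 reads in sgCYRANO and 14088 in sgNT lay behind miR-142-3p, which alone would give a counting error of 0.017 on the log2 scale. The implied error of 0.09 is larger than that.

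The arms of miR-342 had unlike values in this comparison, though neither passed. miR-342-3p had a log2 fold change of -0.13 ± 0.15 in the authors' deposited table (adjusted p = 0.980), with an interval from -0.42 to 0.15. miR-342-5p had 0.90 ± 0.27, or 1.87-fold, in the authors' deposited table, with an interval from 0.38 to 1.43 and an adjusted p of 0.152. It was number 4 of 837 by p, and number 2 of 299 microRNAs at 10 CPM or more by the size of the log2 fold change, after miR-7-5p.

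The p of miR-342-5p lay at the Poisson bound. The deposited p of 7.27e-04 equals a Poisson likelihood ratio test on the CPM values as if each library held 1000000 reads, which gives 7.27e-04, while its deposited F at the table's most common 3348 degrees of freedom gives 1.74e-04. Of the 315 p-values at this bound, 58 were of microRNAs at 10 CPM or more, and no deposited p lay over 1% below it. With the F so read, a choice made after seeing the data, the adjusted p of miR-342-5p is 0.0728. With the F at 4 degrees of freedom it is 0.975, and with microRNAs under 10 CPM left out it is 0.0543, so it did not pass under any alternative run. By the recovered totals its means rest on about 139 reads in sgCYRANO and 76.5 in sgNT. Their counting error is 0.21 on the log2 scale. The implied 0.27 was worked back from the p at the bound, so its excess over 0.21 does not measure spread between libraries.

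**Figure D2:**
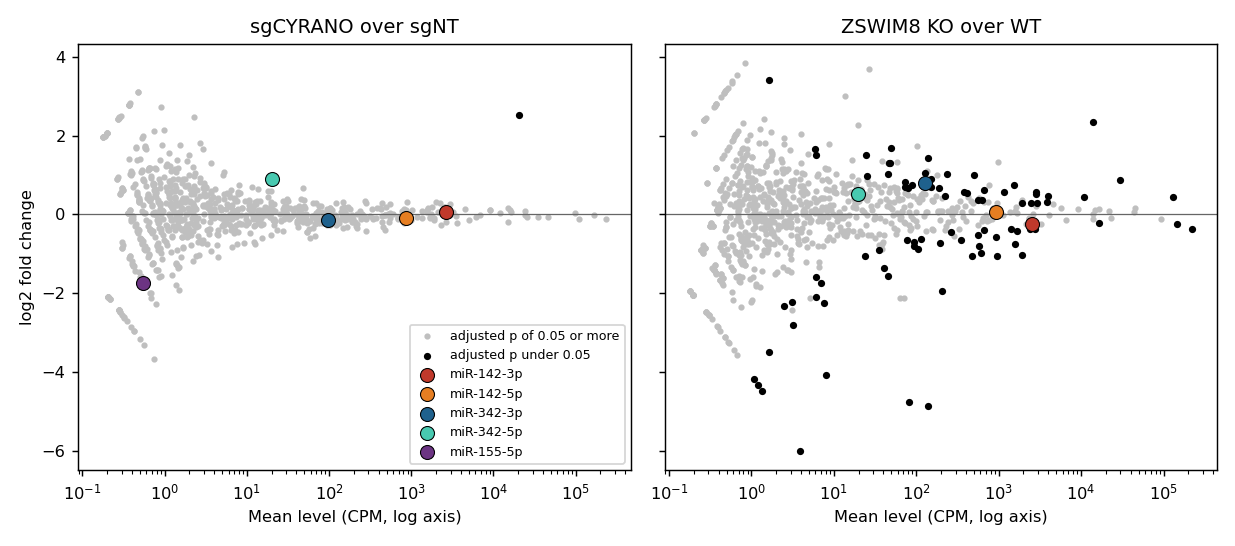
Log2 fold change against mean level (CPM, log axis) of all microRNAs in the authors' deposited tables, sgCYRANO over sgNT on the left and ZSWIM8 KO over WT on the right. Black points have an adjusted p under 0.05 and coloured points are the lymphoid strands. miR-342-5p stands out from its abundance range on the left, and miR-342-3p, at 128.4 CPM on average, lies among the black points on the right.

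The second comparison asked whether the strands respond to loss of ZSWIM8. miR-342-3p was higher in ZSWIM8 KO than in WT, while miR-342-5p, miR-142-3p and miR-142-5p did not pass an adjusted p of 0.05. Thus 1 of the 4 strands was called, against 9.91% of all 868 microRNAs, of which 4.72% were higher and 5.18% lower. Of the 304 microRNAs at 10 CPM or more, as all 4 strands were, 23% were called, and a share of 1 in 4 is near that background. An unadjusted p under 0.05 was found for 2 of the 4 strands and 19.8% of all microRNAs. The median log2 fold change was 0.30 over the 4 strands and 0.08 over all microRNAs.

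miR-342-3p rose to 163.1 CPM in ZSWIM8 KO, against 93.7 CPM in WT. The authors' deposited table gave a log2 fold change of 0.80 ± 0.19, or 1.74-fold, with a 95% interval from 1.34-fold to 2.26-fold and an adjusted p of 7.68e-04 (edgeR quasi-likelihood test). Of the 41 microRNAs called higher, 18 had a larger log2 fold change, so this rise was of middling size. The means rest on about 1151 reads in ZSWIM8 KO and 357 in WT, and the counting error of 0.09 is under the implied error of 0.19. Taking the same F at 4 degrees of freedom, the residual number for 6 libraries in 2 groups, ended the call (adjusted p = 0.292). That F still holds the shared variance, so this does not test the strand against its own spread between libraries.

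miR-342-5p pointed the same way with a wider error. Its log2 fold change was 0.53 ± 0.35 in the authors' deposited table, with an interval from -0.16 to 1.22 and an adjusted p of 0.445. The interval holds both no change and the value of the opposite arm. About 162 reads in ZSWIM8 KO and 60.4 in WT lay behind it.

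The miR-142 strands had opposite signs in the second comparison. For loss of ZSWIM8 the authors' deposited table gave -0.25 ± 0.10 for miR-142-3p, with an interval from -0.45 to -0.06, an unadjusted p of 0.0118 and an adjusted p of 0.0912. It gave 0.07 ± 0.12 for miR-142-5p, with an interval from -0.15 to 0.30 and an adjusted p of 0.817. Over the 304 microRNAs at 10 CPM or more the median was 0.13 on the log2 scale, against -0.02 over the 299 of the first comparison.

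Relative to that median, miR-142-3p stood at -0.38 and passed with an adjusted p of 0.00264 (normal test of the centred log2 fold change), while the sign of miR-142-5p turned to -0.058. miR-342-3p stood at 0.67 and miR-342-5p at 0.40 on the same centred scale. After centring 10.6% of all microRNAs passed. Leaving out microRNAs under 10 CPM also brought miR-142-3p past the threshold, with an adjusted p of 0.0398. The call for miR-142-3p therefore rests on the scaling and the filter, and its level in ZSWIM8 KO was 0.839 times that in WT as deposited.

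**Figure D3:**
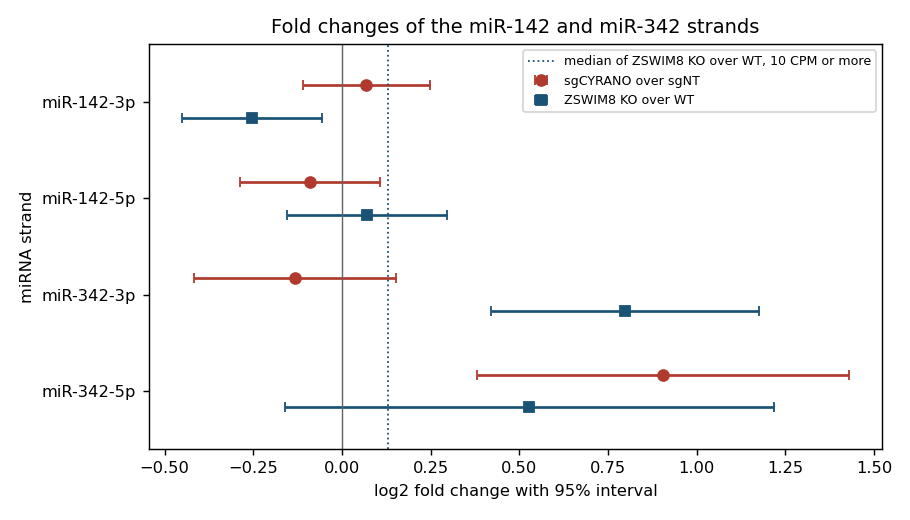
Log2 fold change with its 95% interval for the miR-142 and miR-342 strands, circles for sgCYRANO over sgNT and squares for ZSWIM8 KO over WT. The dotted line is the median of 0.13 for microRNAs at 10 CPM or more in ZSWIM8 KO over WT. The difference between the comparisons passed for miR-342-3p and not for the other 3 strands, against 6.64% of 753 microRNAs (normal test of the difference).

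The comparisons share no libraries, so their fold changes could be set against each other, over 753 microRNAs with a row in both tables. miR-342-3p changed by 0.93 ± 0.24 more on the log2 scale in ZSWIM8 KO over WT than in sgCYRANO over sgNT, with a 95% interval from 0.46 to 1.40 (normal test of the difference, adjusted p = 0.00322). In all, 6.64% of the 753 microRNAs differed between the comparisons at an adjusted p of 0.05, and miR-342-3p was number 27 by p. The difference was -0.32 ± 0.14 for miR-142-3p (adjusted p = 0.162), 0.16 ± 0.15 for miR-142-5p (adjusted p = 0.751) and -0.38 ± 0.44 for miR-342-5p (adjusted p = 0.796). With each comparison centred on its median, the difference of miR-142-3p was -0.47 and passed (adjusted p = 0.0118). The guide-treated lines and the knockout also differ in how they were made, and these differences cannot be told apart from the target.

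The arms of each hairpin were then compared within each group. In miR-142 the 3p strand made up 76.4% of the hairpin's CPM in sgCYRANO and 74.4% in sgNT, and 71.1% in ZSWIM8 KO and 75.5% in WT. In miR-342 it made up 78.0% in sgCYRANO and 88.0% in sgNT, and 87.7% in ZSWIM8 KO and 85.5% in WT. The 3p strand thus led in both hairpins in every group, and the lowest share of miR-342-3p was in sgCYRANO. The summed CPM of miR-342 was nonetheless 119.1 in sgCYRANO and 115.7 in sgNT, against 186.0 in ZSWIM8 KO and 109.6 in WT.

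In sgCYRANO over sgNT, the log2 fold change of miR-342-5p exceeded that of miR-342-3p by 1.04 ± 0.30, with an interval from 0.44 to 1.63. Among 201 hairpins with both arms in the table this was number 2 by p, with an adjusted p of 0.0672 (normal test of the difference), and 0.498% of hairpins passed. With the errors taken from the deposited F, the adjusted p was 0.0229, and with arms under 10 CPM left out it was 0.0234. The call therefore rests on how the error of the scarce 5p strand is taken and on the filter.

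In the second comparison neither hairpin's arm difference passed. In ZSWIM8 KO over WT the arms of miR-342 differed by -0.27 ± 0.40 on the log2 scale (5p minus 3p, adjusted p = 0.920), with an interval from -1.06 to 0.52. The arms of miR-142 differed by 0.32 ± 0.15 (normal test, adjusted p = 0.339), number 20 of 209 hairpins by p, of which 5.26% passed. The 11 that passed were all among the 71 hairpins with both arms at 10 CPM or more, as miR-142 was. In sgCYRANO over sgNT the arms of miR-142 differed by -0.16 ± 0.14 (normal test, adjusted p = 0.969).

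**Figure D4:**
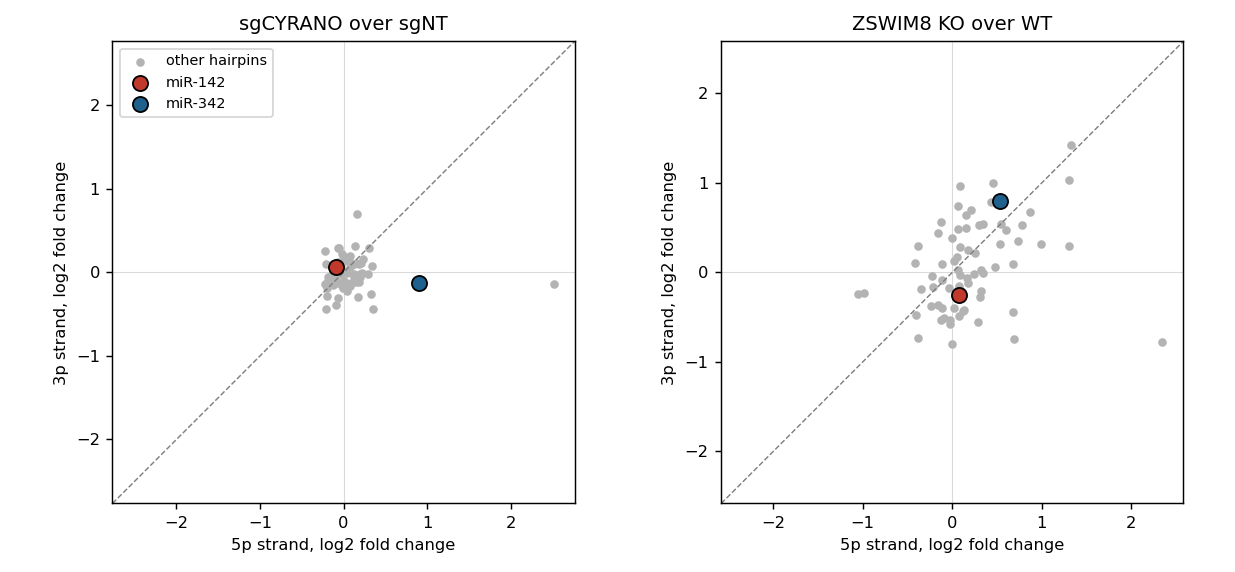
Log2 fold change of the 3p strand against that of the 5p strand for hairpins with both arms at 10 CPM or more, 70 in sgCYRANO over sgNT (left) and 71 in ZSWIM8 KO over WT (right), with the line of equal change dashed. On the left miR-342 lies to the right of the cloud, at 0.90 for its 5p strand and -0.13 for its 3p strand. On the right both of its strands lie above 0.

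Errors of the strands were ordinary for their abundance. Taken from the deposited F, they were 0.994 to 1.04 times the running median of microRNAs of like abundance in the first comparison and 0.973 to 0.989 times in the second. Since the deposited variances were almost wholly shared between microRNAs, these ratios do not show how far the libraries of a group lay apart for a single strand.

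The microRNAs whose pair of log2 fold changes lay nearest to each strand were found among 294 at 10 CPM or more in both tables, by the distance over the 2 comparisons. Nearest to miR-142-5p were miR-106b-5p, miR-26a-5p and miR-425-5p, at 0.00322 to 0.0176. Nearest to miR-142-3p were miR-424-3p, miR-25-3p and miR-576-5p, at 0.0517 to 0.0581. Nearest to miR-342-3p were miR-135a-5p, miR-450a-5p and miR-4664-3p, at 0.103 to 0.106. miR-342-5p had no such close neighbours, with let-7d-3p at 0.205, miR-1248 at 0.513 and miR-98-5p at 0.524.

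Other strands known from lymphocytes were read against the background. All 15 strands of the list had a row in both tables, and 0 passed in sgCYRANO over sgNT and 0 in ZSWIM8 KO over WT (edgeR quasi-likelihood test), against 0.119% and 9.91% of all microRNAs. In each comparison 9 of the 15 were at 10 CPM or more, where 0.334% and 23% of microRNAs were called. An unadjusted p under 0.05 was found for 1 and 4 of the 15, against 5.85% and 19.8% of all microRNAs, and 4 of 15 is near that background. Their median log2 fold change was -0.07 in the first comparison and 0.09 in the second, beside 0.01 and 0.08 over all microRNAs. The most abundant, miR-26a-5p, a repressor of EZH2, had 44507 CPM in sgCYRANO and 46793 CPM in sgNT, and 45314 CPM in ZSWIM8 KO and 43153 CPM in WT. miR-146a-5p, which represses TRAF6 and IRAK1 in the NF-kB pathway, had 251.0 CPM in sgCYRANO and 247.5 CPM in sgNT, and 248.5 CPM in ZSWIM8 KO and 233.1 CPM in WT. Its log2 fold changes were 0.02 ± 0.12 and 0.09 ± 0.16 in the authors' deposited tables. miR-29a-3p had 408.5 CPM in sgCYRANO and 470.4 CPM in sgNT, and 382.0 CPM in ZSWIM8 KO and 299.7 CPM in WT. Its second log2 fold change was 0.35 ± 0.14 (adjusted p = 0.106 in the authors' deposited table). In ZSWIM8 KO over WT that table gave 0.68 ± 0.25 for miR-181a-5p (adjusted p = 0.0636) and -0.75 ± 0.28 for miR-181a-2-3p (adjusted p = 0.0691). The difference of these 2 strands, 1.43 ± 0.38, passed (5p minus 3p, normal test, adjusted p = 0.00413). Of 209 hairpins 11 passed, all among the 71 with both arms at 10 CPM or more. The name miR-181a-5p carries no hairpin number, so its reads may not come from the miR-181a-2 hairpin alone.

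Of 6 myeloid strands, 0 passed in sgCYRANO over sgNT, with 0 at an unadjusted p under 0.05, while 1 fell and the other 5 missed the threshold in ZSWIM8 KO over WT (edgeR quasi-likelihood test). All 6 were at 10 CPM or more, where 23% of microRNAs were called in that comparison, so 1 of 6 is not above the background. The fall was of miR-223-5p, from the hairpin of a microRNA that restrains granulocyte production in mice, at 2080 CPM in ZSWIM8 KO and 2712 CPM in WT. The authors' deposited table gave it a log2 fold change of -0.38 ± 0.10 (adjusted p = 0.00353). miR-223-3p had 0.30 ± 0.12 in the same table and did not pass (adjusted p = 0.0779). In this hairpin the 5p strand had the negative value, and the arm difference of -0.68 ± 0.15 passed (5p minus 3p, normal test, adjusted p = 7.12e-04). Arm differences passed for 11 of 209 hairpins, all among the 71 with both arms at 10 CPM or more. In miR-142 the 3p strand had the negative value, but its arm difference of 0.32 ± 0.15 did not pass (normal test, adjusted p = 0.339). The positive value of miR-142-5p, 0.07 ± 0.12, also turned to -0.058 on centring.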

How the data were processed

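Per the labels' protocols, RNA came from miRNeasy columns and libraries from a NEBNext small RNA kit. Tools in the submitters' processing notes are edgeR, featureCounts, STAR, FastQC 0.11.2 and bcl2fastq, and the build is hg19, with no roles or order given. The sources used here do not say how reads shared between similar microRNAs were counted. Per the file headers, the authors deposited for each comparison a log2 fold change, a mean log2 CPM, an F statistic, treated as a score,, a p-value and an adjusted p-value.

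The deposited adjusted p-values were recovered to within 5.5e-08 and 1.09e-06 by Benjamini-Hochberg adjustment of every row. Group means were recovered with a prior count of 2 for the mean log2 CPM and 0.125 for the log2 fold change, and sum to 1000000 CPM in each group. These sums run over the deposited rows, so the values tested had been scaled to each library's reads in those rows. Whole reads of 3 libraries accounted for all low group means, 276 in sgCYRANO, 304 in sgNT, 301 in ZSWIM8 KO and 320 in WT, under 1.5 CPM and within 0.0015 CPM. The resulting library totals cannot be tied to replicate numbers.

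Standard errors are log2 fold changes divided by the normal deviate that the deposited p implies. Differences between arms and between comparisons used a normal test over the summed squared errors, with Benjamini-Hochberg adjustment over all hairpins or microRNAs. Arms were paired by RefSeq hairpin or by name. Calculations used python 3.11.15, numpy 2.4.6, scipy 1.17.1 and pandas 2.3.3, and the procedures were tested on simulated data. The simulated reads had Poisson error only, and the simulated p-values came from the same errors that were then worked back. The simulation therefore checks the arithmetic and not the errors implied by the deposited p. Alternatives were centring on the median, leaving out microRNAs under 10 CPM, and other readings of the deposited F.

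Named microRNAs are the strands matching the rule, the 3 nearest to each by fold change, miR-7-5p, and examples of the marker, lymphocyte and myeloid lists. The members and lists were chosen with earlier results of these data known, and the Poisson bound was examined after seeing the data.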

Additional observations from a re-analysis of the deposited data

Results flagged for a closer look

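The log2 fold change of miR-342-3p differed between the comparisons by 0.93 (0.80 in ZSWIM8 KO over WT minus -0.13 in sgCYRANO over sgNT), a difference that passed its own test (normal test, adjusted p = 0.00322 over 753 microRNAs). Its group mean was 163.1 CPM in ZSWIM8 KO and 93.7 CPM in WT, and 92.9 CPM in sgCYRANO and 101.8 CPM in sgNT. Values of single libraries were not used here, so how many libraries show each direction is not known.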

How the results depend on the processing

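No paired analysis was possible because the deposited tables hold no values of single libraries, so fits with a replicate block and without each replicate were not run. Of 55 alternative values for the strands, arms and differences, 48 kept their sign and their side of the threshold. Centring on the median turned miR-142-5p to -0.058 in ZSWIM8 KO over WT and brought past the threshold miR-142-3p (-0.38) and its difference between comparisons (-0.47). Without microRNAs under 10 CPM, miR-142-3p (-0.25) and the arm difference of miR-342 in sgCYRANO (1.04) passed, the second also with errors from F (1.04). This filter leaves fewer microRNAs to adjust over. The F read with 4 degrees of freedom ended the call of miR-342-3p (0.80) and left 3 calls of 86, since the same F has a larger p at fewer degrees of freedom. The F read with the most common degrees of freedom, added after seeing the data, gave 95 calls. Halving or doubling the prior count moved only the means of miR-155-5p beyond counting error, to 2.44 CPM (halved) and the impossible -2.18 CPM (doubled) in sgNT. Depth limits miR-155-5p, with 1 and 5 reads. For miR-342-5p the counting error was 0.21 beside an implied 0.27 in sgCYRANO over sgNT and 0.22 beside 0.35 in ZSWIM8 KO over WT. The 0.27 comes from a p at the Poisson bound, so its excess over 0.21 does not measure spread between libraries.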
